A study of Homo sapiens with 16 samples.

Results

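The Fc receptor-like (FCRL) genes and CLEC17A were examined as a group of 8 B cell genes among the 58051 gene identifiers measured. The members, taken by symbol, were FCRL1, FCRL2, FCRL3, FCRL4, FCRL5, FCRLA, FCRLB and CLEC17A. The group was chosen by measured values: FCRL4 and CLEC17A had some of the most negative changes with the inhibitor at high MYC (ranks 17 and 16 from the lowest of 13765 genes), and their response differed between MYC levels. Values from those comparisons are therefore given here as a description, without a test. RNA came from P493-6 cells, human B cells immortalised with Epstein-Barr virus, whose MYC transgene doxycycline represses and whose viral EBNA2 protein needs oestrogen. High MYC cells were kept in plain medium, and medium MYC cells received 0.1 µg/mL doxycycline with 1 µM β-estradiol from 24 h before treatment. Each culture then received the DMSO vehicle (control) or IMP1088 at 100 nM for 24 h; this compound blocks N-myristoyltransferases (NMT), which attach the fatty acid myristate to proteins. This gave a control and an inhibitor group at each MYC level, 4 groups of 4 libraries in all. All come from a single line, and because MYC level was set by the additives, effects of MYC, doxycycline and estradiol cannot be told apart.

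FCRL proteins are relatives of the classical Fc receptors. FCRL1 to FCRL5 are cell surface receptors of B cells whose cytoplasmic tails carry tyrosine motifs: activating motifs bind kinases such as SYK, and inhibitory motifs (ITIMs) bind phosphatases such as SHP-1, the product of PTPN6. FCRLA and FCRLB are intracellular members of the family. CLEC17A, also called prolectin, is a C-type lectin that binds sugars on glycoproteins and is known from germinal centre B cells. FCRL4 is known as a marker of a tissue-based memory B cell subset.

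Library depth ran from 8755296 to 13858534 reads, and replicates correlated across genes at r from 0.985 to 0.991 on the log2 scale. Among controls the MYC transcript averaged 31649 ± 2130 normalized counts at high MYC (SD, n = 4) and 959 ± 48.7 at medium MYC (SD, n = 4), in the direction of the labels. With the inhibitor it averaged 47542 ± 505 at high MYC and 1382 ± 51.2 at medium MYC (SD, n = 4), so MYC itself was higher in the inhibitor libraries at both levels. All 6 B cell markers examined were detected in every group, with summed normalized counts of 23822 to 24000 in high MYC controls, 19245 to 20206 in high MYC inhibitor libraries, 38767 to 39481 in medium MYC controls and 34125 to 35360 in medium MYC inhibitor libraries. Summed over 6 T cell markers the normalized count was 87.2 to 106 in high MYC controls and 183 to 241 in medium MYC controls. CD8A was at 0 in both, while CD3E averaged 37.3 and 59.6, TRAC 27.8 and 132, and CD3G 28.7 and 21.6. The 5 natural killer cell markers summed to at most 26.5 in any library, with NCAM1 at 0 throughout and NKG7 averaging 23.2 in medium MYC controls. The 6 monocyte markers summed to at most 84.4. The 5 plasma cell markers, led by JCHAIN, summed to 8856 to 10263 in high MYC controls and 1207 to 1330 in medium MYC controls. In the same groups the 5 fibroblast markers summed to 122 to 134 and 571 to 650. Of these, PDGFRB averaged 123 and 436 and COL1A1 7.09 and 164, while DCN was at 0 throughout. In medium MYC inhibitor libraries the plasma cell sum was 1858 to 2003 and the monocyte sum 80.4 to 84.4, against 51.7 to 62.6 for monocyte markers in the controls, while the T cell sum was 154 to 188 and the fibroblast sum 497 to 537. In high MYC inhibitor libraries the plasma cell sum was 10521 to 10584, the monocyte sum 50.5 to 64.5, the T cell sum 55.1 to 78.8 and the fibroblast sum 68.1 to 96.8. The part of these marker and MYC differences in the results below was not tested. In bulk RNA, fewer cells with a transcript and less transcript per cell cannot be told apart. The labels do not say that replicates were separate cultures, so p-values measure the spread between these libraries, which may be technical.

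Every member was above the detection floor of 3 reads in every library, and all 8 passed the filter of a mean normalized count of at least 10. The lowest value was 12 reads for CLEC17A in a high MYC inhibitor library, for which the exact Poisson 95% interval is 6.20 to 21.0 reads. On chromosome 1, FCRL5, FCRL4, FCRL3, FCRL2 and FCRL1 lie in this order on the minus strand (157513377 to 157552520, 157573749 to 157598080, 157674321 to 157700857, 157745733 to 157777132 and 157794403 to 157820105, GRCh38). FCRLA (161706972 to 161714352) and FCRLB (161721563 to 161728143) lie next to each other on the plus strand of chromosome 1, and CLEC17A (14583084 to 14611157) lies on the plus strand of chromosome 19. Exons of FCRL3 overlap those of 1 gene on the opposite strand, AL356276.1 (ENSG00000227217), which had no more than 6 reads in any library. No other member shares exons with another annotated gene. No source used here says whether counting was strand-specific, so reads of FCRL3 and this partner cannot be told apart where they overlap.

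The sequences before the gene starts are shown for the 5 tandem genes, because these close relatives moved in different directions with MYC level. Each is from the 250 bases before the RefSeq gene start on GRCh38.p14, written 5′ to 3′ on the minus strand, without any bases that GENCODE places in an exon of the gene (88 for FCRL3 and 5 for FCRL5). Both strands were searched for TGGGAA (RBPJ), CACGTG (E-box), GAGGAAGT (SPI1), an NF-kappaB decamer in a strict and a loose form, and an interferon response element; capitals mark matches. The windows are chr1:157700858-157701019 for FCRL3, chr1:157598086-157598335 for FCRL4, chr1:157552521-157552765 for FCRL5, chr1:157777133-157777382 for FCRL2 and chr1:157820121-157820370 for FCRL1.
FCRL3: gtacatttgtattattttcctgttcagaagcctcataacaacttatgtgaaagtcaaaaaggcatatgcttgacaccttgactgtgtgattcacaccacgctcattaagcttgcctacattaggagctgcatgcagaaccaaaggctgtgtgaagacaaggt
FCRL4: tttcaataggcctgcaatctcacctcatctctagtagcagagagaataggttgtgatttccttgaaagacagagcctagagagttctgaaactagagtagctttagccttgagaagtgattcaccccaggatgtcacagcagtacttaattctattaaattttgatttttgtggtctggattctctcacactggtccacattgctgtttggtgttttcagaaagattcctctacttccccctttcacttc
FCRL5: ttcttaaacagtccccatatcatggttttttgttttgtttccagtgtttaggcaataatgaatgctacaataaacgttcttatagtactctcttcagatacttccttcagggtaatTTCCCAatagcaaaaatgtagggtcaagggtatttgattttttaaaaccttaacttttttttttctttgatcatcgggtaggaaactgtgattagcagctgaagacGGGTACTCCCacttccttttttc
FCRL2: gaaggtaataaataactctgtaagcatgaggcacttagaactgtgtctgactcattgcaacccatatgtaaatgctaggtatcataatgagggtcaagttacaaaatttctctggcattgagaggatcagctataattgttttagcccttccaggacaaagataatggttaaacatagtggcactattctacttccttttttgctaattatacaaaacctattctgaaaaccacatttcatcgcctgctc
FCRL1: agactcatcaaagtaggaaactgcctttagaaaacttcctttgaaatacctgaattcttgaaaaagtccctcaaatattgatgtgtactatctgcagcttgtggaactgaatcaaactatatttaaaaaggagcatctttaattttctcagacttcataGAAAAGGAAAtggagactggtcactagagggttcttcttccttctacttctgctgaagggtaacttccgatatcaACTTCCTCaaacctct

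Over the full 250 bases, FCRL3 and FCRL5 each hold a match to the RBPJ letters, which 20.8% of 35116 RefSeq windows of this length hold, and a match to the loose NF-kappaB letters, which 54.4% hold. In FCRL3 these matches overlap, from 82 to 72 bases before the start, within the exonic bases that are not shown. FCRL1 and FCRLA each hold the SPI1 letters (2.17% of windows) and the interferon element letters (3.02%). All 250 bases of the FCRLA window lie in an exon of the gene in GENCODE, so it is not shown. FCRL4 and FCRL2 hold none of the 6 motifs in this window, and no member window holds CACGTG (6.34% of windows) or the strict NF-kappaB decamer (0.179%). A match is a description of letters, not of a bound site. RefSeq windows were found for 7 of the 8 members; FCRLB has 3 of them, of which the farthest upstream holds the RBPJ letters and the loose NF-kappaB letters, and the others hold none of the 6.

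Medium against high MYC among controls. This comparison asks how the genes differ between MYC levels without the drug. It was not used to pick the members, but it shares libraries with the comparisons that were. These are the high MYC controls for the inhibitor change at high MYC, and both control groups for the difference in response. FCRL3, FCRL4, CLEC17A and FCRL5 were higher at medium MYC, and FCRLA, FCRLB, FCRL1 and FCRL2 were lower. All 8 members thus passed an adjusted p-value of 0.05 in limma, in a transcriptome where 76.2% of the 13765 tested genes did (38.9% higher, 37.3% lower), so the number called is not a result about these genes. At least 4-fold changes were seen for 3 of the 8, FCRL3, FCRL4 and CLEC17A, against 7.21% of all tested genes. FCRL4 and CLEC17A are the genes through which the group was chosen, on comparisons that share these libraries. This share is therefore not a result about the members. Log2 changes ran from -1.40 to 5.93 with a median of 0.32 over the members, against 0.02 over all tested genes. The groups were without overlap for 7 of the 8, against 69.2% of all genes.

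**Figure D1:**
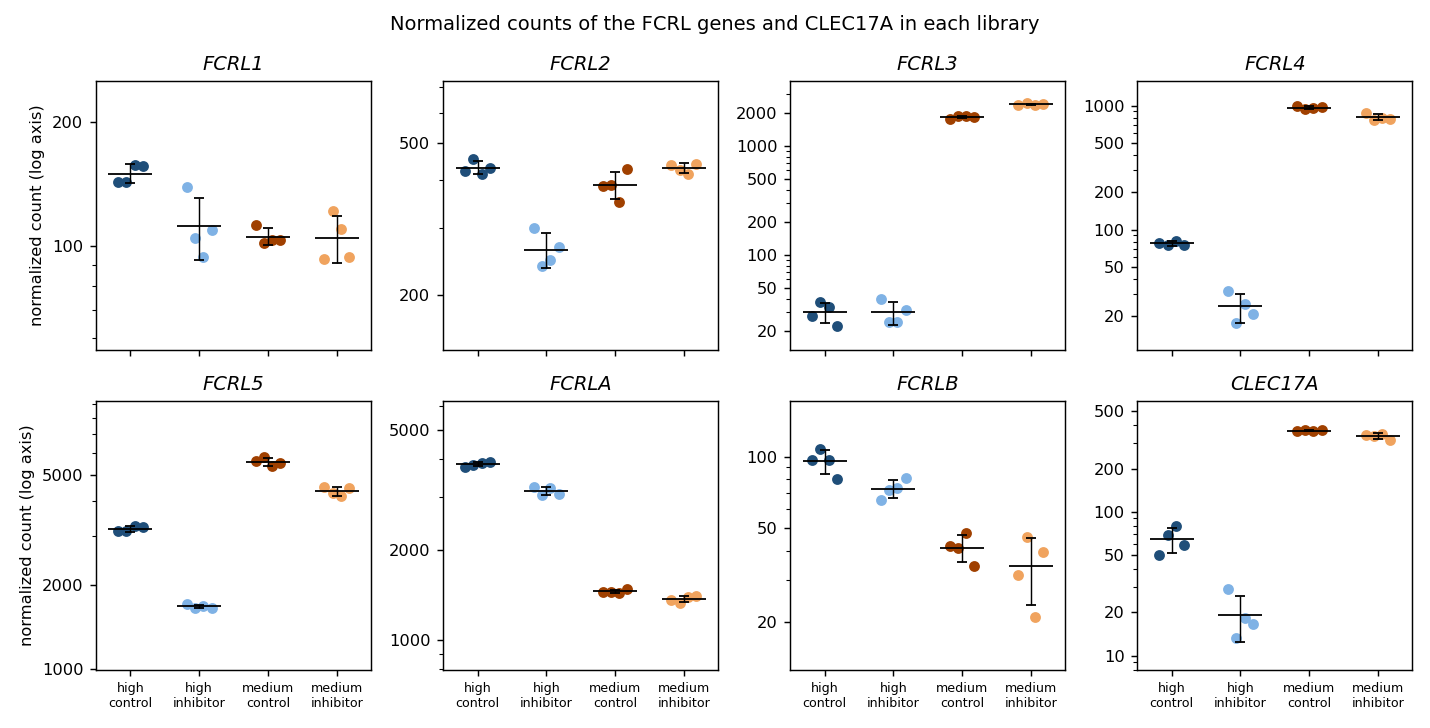
Normalized count of each gene in each of the 16 libraries (log axis, 1 panel per gene, points in replicate order, black line and bar for the mean ± SD of 4). FCRL3, FCRL4, FCRL5 and CLEC17A sit higher in all medium MYC libraries than in all high MYC libraries, and FCRLA and FCRLB sit lower.

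FCRL3, a receptor with both inhibitory and activating motifs, showed the largest MYC level difference of the 8. Its normalized counts were 27.9, 37.1, 33.1 and 22.4 in high MYC controls and 1789, 1877, 1909.6 and 1874 in medium MYC controls. The lowest medium value was far above the highest high MYC value. The log2 change was 5.93 (SE 0.13, adjusted p in limma 3.82e-20), a 60.9-fold rise and rank 57 from the top of the 13765 genes.

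FCRL4, an inhibitory receptor that binds IgA, was next. Its normalized counts were 78.3, 75.2, 81.7 and 74.9 in high MYC controls and 987, 935, 955 and 978 in medium MYC controls. These groups were also well separated. On the log2 scale this was 3.62 (SE 0.11, adjusted p in limma 1.74e-17), a 12.3-fold rise.

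FCRL5, an inhibitory receptor that binds IgG, was abundant in every group and rose less. Its normalized counts were 3132, 3123, 3260.3 and 3231 in high MYC controls and 5584, 5771, 5366 and 5492 in medium MYC controls. That is a log2 change of 0.80 (SE 0.03, adjusted p in limma 3.42e-16), a 1.74-fold rise with tight replicates on both sides.

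CLEC17A, which lies on another chromosome, rose as well. Its normalized counts were 50.5, 68.5, 79.5 and 59.2 in high MYC controls and 365.1, 372, 364.9 and 369 in medium MYC controls. The fitted log2 change was 2.51 (SE 0.16, adjusted p in limma 4.45e-12), a 5.71-fold rise.

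The remaining tandem genes fell slightly. FCRL1, an activating receptor with a broad presence on mature B cells, ran from 143 to 157 in high MYC controls and from 102 to 113 in medium MYC controls (log2 change -0.50, SE 0.11, adjusted p in limma 3.23e-04). FCRL2 ran from 416 to 455 in high MYC controls and from 351 to 428 in medium MYC controls, and these ranges overlapped. Its log2 change of -0.15 (SE 0.07, adjusted p in limma 0.0428) was near the threshold, and the call was lost without any of 6 of the 8 control libraries (high MYC replicates 1, 2 and 4, medium MYC replicates 1, 2 and 3), with adjusted p-values from 0.0523 to 0.157. It was also lost in DESeq2 (adjusted p-value 0.0553), and in limma with equal library totals (0.0545), quantile normalization (0.106), no filter (0.0686), no mean trend (0.0578) and a GC correction (0.0648).

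The intracellular members fell together. FCRLA, an endoplasmic reticulum protein that binds immunoglobulin inside B cells, had normalized counts of 3773, 3815, 3876 and 3915 in high MYC controls and 1449, 1443, 1436 and 1479 in medium MYC controls. The log2 change was -1.40 (SE 0.03, adjusted p in limma 1.01e-20), a 2.65-fold fall. FCRLB ran from 80.5 to 108 in high MYC controls and from 34.5 to 47.3 in medium MYC controls (log2 change -1.20, SE 0.18, adjusted p in limma 3.65e-06), a 2.29-fold fall.

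Along the tandem cluster, the 3 genes at lower coordinates were higher at medium MYC and the 2 at higher coordinates were lower. Moving up in coordinate, FCRL5 had a log2 change of 0.80, FCRL4 of 3.62, FCRL3 of 5.93, FCRL2 of -0.15 and FCRL1 of -0.50. The starts of FCRL3 and FCRL2, where the value drops most, are 102.8 kb and 179.1 kb from that of FCRL4. Of 28 annotated neighbours within 500 kb, 4 passed the filter, and 3 of these were called higher at medium MYC, against 38.9% of all tested genes. ARHGEF11, a guanine nucleotide exchange factor gene, had a log2 change of 1.27 (adjusted p in limma 1.02e-14). ETV3, CD1D and CD1C had changes of 0.22, 0.07 and 1.28, of which that of CD1D was not called (adjusted p in limma 0.772).

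**Figure D2:**
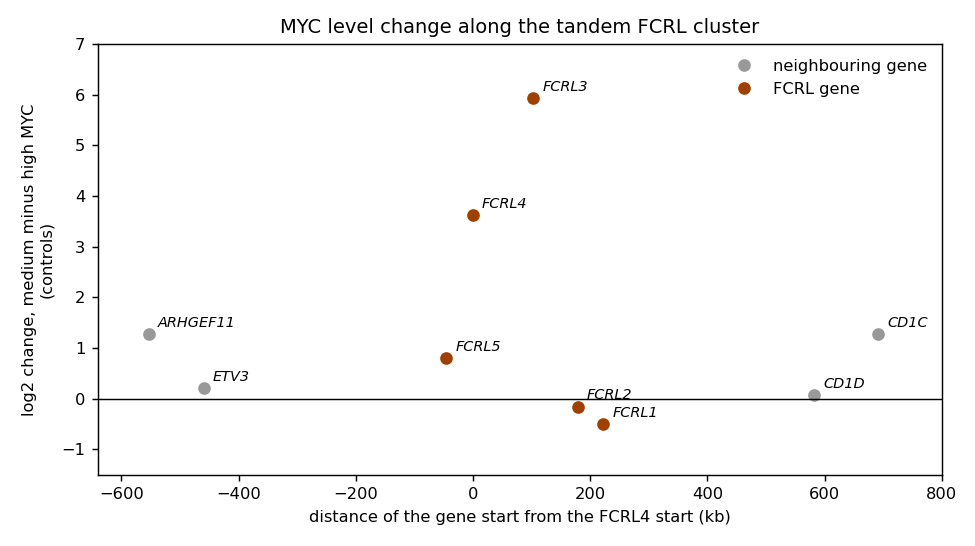
Log2 change from high to medium MYC in controls (vertical axis) against the distance of each gene's start from the FCRL4 start in kb (horizontal axis, positive towards higher coordinates), for FCRL genes (brown) and filtered-in neighbours (grey). FCRL3 at 5.93 and FCRL4 at 3.62 stand above the other points, which lie between -0.50 and 1.28.

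Around FCRLA and FCRLB the direction was different from that of the members. Of 39 neighbours 12 passed the filter, 8 were called higher at medium MYC and 0 lower by limma. Over all tested genes 38.9% were called higher and 37.3% lower. FCGR2B, the inhibitory Fc gamma receptor upstream of FCRLA, had a log2 change of 0.25 (adjusted p in limma 8.30e-07). FCGR2C, farther upstream, had 0.91 (adjusted p in limma 1.98e-11), and HSPA7 1.17 (adjusted p in limma 1.47e-14). FCGR2A, FCGR2B and FCGR2C share stretches of closely similar sequence, as do HSPA6 and HSPA7, so the split of reads between them is uncertain. Near CLEC17A, 15 of 48 neighbours passed the filter, 6 were higher and 6 lower, which is near the shares over all tested genes. NDUFB7, a respiratory complex subunit gene and the nearest of these, had a log2 change of -0.36 (adjusted p in limma 0.00142), against 2.51 for CLEC17A. With the inhibitor at medium MYC, 0 of the 15 neighbours of CLEC17A rose and 6 fell, where 11.7% and 14.6% of all tested genes did. PRKACA and ASF1B were among them, with log2 changes of -0.23 and -0.28. In the same comparison 1 of the 12 neighbours of FCRLA and FCRLB rose, ATF6 with 0.24, and 4 fell, among them HSPA7 with -0.45 and FCGR2C with -0.30, while 1 of the 4 around the tandem cluster fell, ARHGEF11 with -0.22.

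Inhibitor against control at medium MYC. This comparison shares no library with the inhibitor comparison at high MYC, in which FCRL4 and CLEC17A were noticed. It is, however, a part of the difference in response between MYC levels, which was also used to choose the group. Its tests of FCRL4 and CLEC17A are therefore not independent of that choice. FCRL5 fell, FCRL3 rose and FCRLA fell slightly, while the other 5 members did not pass. The 3 called of 8 stand against 26.3% of all tested genes (11.7% higher, 14.6% lower), which is near the same share. The balance of calls over all genes, 1606 higher and 2012 lower, turned to 1962 and 1659 with equal library totals and to 1963 and 1876 with quantile normalization. Groups were without overlap for 5 of the 8, against 27.9% of all genes. The median log2 change was -0.11 over the members and -0.01 over all tested genes.

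FCRL5 had normalized counts of 5584, 5771, 5366 and 5492 in medium MYC controls and 4492, 4286, 4171 and 4462 with the inhibitor. All inhibitor libraries lay below all controls. On the log2 scale this was -0.35 (SE 0.03, adjusted p in limma 1.16e-08), a 1.28-fold fall that held in all 29 alternative fits.

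FCRL3 moved the other way, from 1789, 1877, 1909.6 and 1874 in medium MYC controls to 2410.5, 2479, 2367 and 2422 with the inhibitor. The groups lay far apart relative to their spread. That is a log2 change of 0.38 (SE 0.13, adjusted p in limma 0.0370), a 1.30-fold rise. The fit pools its spread with the high MYC libraries, where FCRL3 had 20 to 37 reads. With the medium MYC libraries alone the adjusted p-value was 4.55e-07, and in edgeR on recovered reads 8.48e-08. In the pooled fit the call was lost without any of the 8 medium MYC libraries (adjusted p in limma 0.0534 to 0.0836), with the replicate number as a block (0.0571), without a filter (0.0668) and without the mean trend (0.0873).

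FCRL4 had normalized counts of 987, 935, 955 and 978 in medium MYC controls and 871, 773, 789.6 and 786.5 with the inhibitor. The groups did not overlap. The fitted log2 change was -0.26 (SE 0.11) and did not pass (adjusted p in limma 0.102). Here too the pooled spread included low high MYC counts, of 16 to 30 reads with the inhibitor. With the medium MYC libraries alone the adjusted p-value was 4.03e-04, in edgeR 3.10e-04 and in DESeq2 7.74e-05. Without high MYC inhibitor replicate 1 or 2 the pooled fit also gave a call (adjusted p in limma 0.0229 and 0.0408). FCRL4 was chosen in part through these medium MYC libraries. The p-values of FCRL4 therefore describe how the fits differ and are not independent support for a fall.

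CLEC17A had normalized counts of 365.1, 372, 364.9 and 369 in medium MYC controls and 341, 339, 349 and 315 with the inhibitor. Although the groups did not overlap, the log2 change of -0.13 (SE 0.16) did not pass (adjusted p in limma 0.603), nor with the medium MYC libraries alone (0.0843), in edgeR (0.265) or in DESeq2 (0.294).

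FCRLA had normalized counts of 1449, 1443, 1436 and 1479 in medium MYC controls and 1362, 1329, 1388 and 1398 with the inhibitor. The log2 change was -0.08 (SE 0.03, adjusted p in limma 0.0328), a 1.06-fold fall. The call was lost without control replicate 1, 2 or 4 or inhibitor replicate 1 or 2 (adjusted p in limma 0.0524 to 0.109), and in edgeR (0.0862) and DESeq2 (0.0991). With equal library totals it was -0.06 (adjusted p in limma 0.206), and the call was also lost with quantile normalization (0.153), no filter (0.0743), no mean trend (0.0625) and the medium MYC libraries alone (0.0766).

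The 3 other members were not called at medium MYC. FCRL1 had a log2 change of -0.02 (SE 0.11, adjusted p in limma 0.928), FCRL2 of 0.15 (SE 0.07, 0.104) and FCRLB of -0.30 (SE 0.18, 0.244). FCRL2 was called without medium MYC control replicate 4 (adjusted p in limma 0.0407). FCRLB had 20 to 54 reads in these libraries, and its log2 change ran from -0.45 to -0.09 when each library was left out.

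Inhibitor against control at high MYC. This comparison led to the choice of the group, so its values are a description. All 8 log2 changes were below 0, with a median of -0.58 against -0.02 over all tested genes. Groups were without overlap for 6 of the 8, where 26.7% of all genes were, and 26.8% of all genes were called, 16.3% lower and 10.5% higher. Under quantile normalization the calls over all genes were 1727 higher and 1770 lower, and in the fit above 1442 and 2247.

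CLEC17A and FCRL4 had the largest changes of the 8. CLEC17A had normalized counts of 50.5, 68.5, 79.5 and 59.2 in high MYC controls and 29.04, 13.3, 18.3 and 16.6 with the inhibitor (log2 change -1.72, SE 0.16). FCRL4 had 78.3, 75.2, 81.7 and 74.9 in controls and 32.3, 17.8, 25.3 and 20.8 with the inhibitor (log2 change -1.68, SE 0.11). In both genes the highest inhibitor library lay below the lowest control, and both rest on at most 30 reads per inhibitor library.

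FCRL5 and FCRL2 had intermediate changes. FCRL5 had 3132, 3123, 3260.3 and 3231 in controls and 1708, 1652, 1682 and 1655 with the inhibitor (log2 change -0.93, SE 0.03). FCRL2 ran from 416 to 455 in controls and from 238 to 299 with the inhibitor (log2 change -0.72, SE 0.07). Neither gene's groups overlapped.

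The changes of the other members were smaller. FCRL1 ran from 143 to 157 in controls and from 94.3 to 139 with the inhibitor (log2 change -0.43, SE 0.11). FCRLA ran from 3773 to 3915 and from 3049 to 3225 (log2 change -0.29, SE 0.03). FCRLB ran from 80.5 to 108 and from 65.6 to 81.1, with overlapping groups (log2 change -0.38, SE 0.18). FCRL3 had 27.9, 37.1, 33.1 and 22.4 in controls and 39.8, 24.4, 24.4 and 31.2 with the inhibitor, a log2 change of -0.01 (SE 0.13) with fully mixed groups.

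High MYC inhibitor replicate 1 was the highest of its 4 libraries for 7 of the 8 members, with FCRLB the exception. Its lead was small for FCRLA (3225 against 3212 in replicate 3) and FCRL5 (1708 against 1682 in replicate 3). Without replicate 1 the log2 changes at high MYC were -1.93 for CLEC17A, -1.83 for FCRL4, -0.78 for FCRL2, -0.54 for FCRL1 and -0.15 for FCRL3. Over all libraries left out, FCRL5 ran from -0.94 to -0.92, FCRLA from -0.31 to -0.28 and FCRLB from -0.46 to -0.32.

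**Figure D3:**
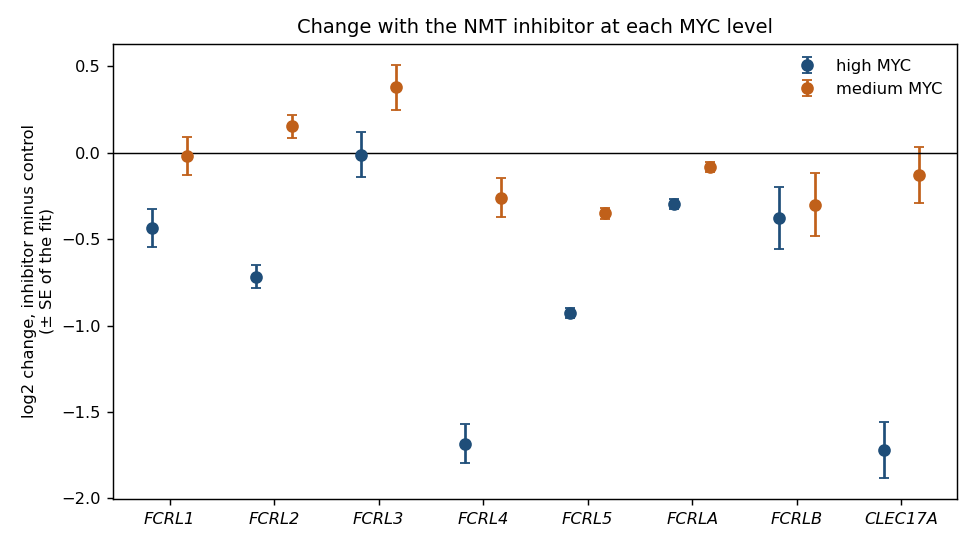
Log2 change with the inhibitor (vertical axis, point ± SE from the 16-library fit) for each gene at high MYC (blue) and medium MYC (orange). CLEC17A and FCRL4 reach -1.72 and -1.68 at high MYC and lie at -0.13 and -0.26 at medium MYC; the high MYC point is the lower of the pair for all 8 genes.

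The difference in response, high minus medium MYC, was likewise in view when the group was chosen and is given without a test. It was below 0 for all 8 members. CLEC17A had -1.59 (SE 0.23), FCRL4 -1.42 (SE 0.16), FCRL2 -0.87 (SE 0.10) and FCRL5 -0.58 (SE 0.04). FCRL1, FCRL3, FCRLA and FCRLB had -0.42, -0.39, -0.21 and -0.08, with SEs of 0.16, 0.19, 0.04 and 0.25. The median was -0.50 over the members and -0.02 over all tested genes, of which 8.63% were called, 3.31% above 0 and 5.33% below 0.

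Medium against high MYC with the inhibitor. This comparison shares the high MYC inhibitor libraries with the comparison that led to the group, and all its libraries with the difference in response. FCRL4 and CLEC17A were noticed for their falls in those high MYC libraries, which may enlarge their differences here. Their values are therefore a description, without a p-value. FCRL3, FCRL4, CLEC17A, FCRL5 and FCRL2 were higher at medium MYC, and FCRLA and FCRLB were lower. Of the members tested here, FCRL3, FCRL5 and FCRL2 were called higher, FCRLA and FCRLB lower, and FCRL1 was not called. Over all tested genes 77.5% were called (39.7% higher, 37.8% lower), so these calls are not a result about the members. Groups were without overlap for 7 of the 8, against 72.6% of all genes.

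The separation of FCRL3 was again the largest, with a log2 change of 6.32 (SE 0.13, adjusted p in limma 1.17e-20), a 79.8-fold difference and rank 36 of 13765. FCRL4 had 5.04 (SE 0.11), a 32.9-fold difference, and CLEC17A 4.11 (SE 0.16), a 17.2-fold difference. A pseudocount of 10 in place of 1 gave 5.94, 4.60 and 3.59 for these genes, since their high MYC counts are low. FCRL5 had 1.38 (SE 0.03, adjusted p in limma 2.78e-20).

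FCRL2 was 1.64-fold higher at medium MYC with the inhibitor, a log2 change of 0.72 (SE 0.07, adjusted p in limma 2.78e-09). Its normalized counts were 299, 238, 246 and 267 at high MYC and 439, 426, 415 and 442 at medium MYC, without overlap. FCRLA had a log2 change of -1.19 (SE 0.03, adjusted p in limma 1.54e-19) and FCRLB of -1.12 (SE 0.18, 8.57e-06). FCRL1 had -0.09 (SE 0.11) and did not pass (adjusted p in limma 0.475).

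Levels between genes were compared as normalized count per kb of annotated exon, over all exons of a gene. In high MYC controls FCRLA was highest at 1174 ± 19.3 (SD, n = 4), followed by FCRL5 at 256.6 ± 5.59, FCRL2 at 85.2 ± 3.33, FCRL1 at 38.1 ± 2.02 and FCRLB at 36.8 ± 4.35. CLEC17A at 28.8 ± 5.56, FCRL4 at 20.01 ± 0.82 and FCRL3 at 4.60 ± 0.98 were lowest. Neighbours in this order were separate except FCRL1 with FCRLB and FCRLB with CLEC17A, whose libraries overlapped.

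In medium MYC controls FCRL5 at 447 ± 13.7 and FCRLA at 443 ± 5.72 (SD, n = 4) overlapped at the top. FCRL3 followed at 285 ± 7.89, FCRL4 at 248.7 ± 6.05, CLEC17A at 164 ± 1.46, FCRL2 at 76.7 ± 6.20, FCRL1 at 26.8 ± 1.26 and FCRLB at 15.9 ± 2.02, each separate from the next. FCRL3 thus moved from the lowest of the 8 to the third place. With the inhibitor at medium MYC the order was FCRLA at 418 ± 9.36, FCRL3 at 370.1 ± 7.10, FCRL5 at 350.5 ± 12.2 and FCRL4 at 208 ± 11.6, and no neighbours in the whole order overlapped. With the inhibitor at high MYC, CLEC17A at 8.64 ± 3.04, FCRL4 at 6.20 ± 1.63 and FCRL3 at 4.58 ± 1.12 formed an overlapping run at the bottom. These values depend on the annotated exon length, which is 12419 bases for FCRL5 and from 2238 to 6538 bases for the others.

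**Figure D4:**
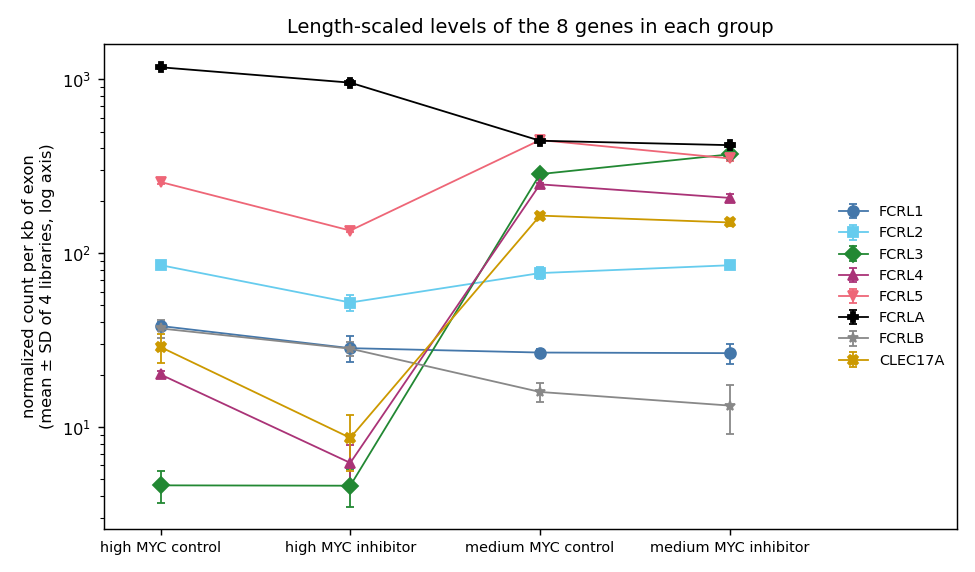
Mean normalized count per kb of exon (log axis, ± SD of 4 libraries) for each gene in the 4 groups; lines join the same gene. FCRLA leads in 3 groups and overlaps FCRL5 in medium MYC controls, while FCRL3 goes from 4.60 in high MYC controls to 285 in medium MYC controls.

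The genes with the most similar pattern over the 16 libraries were sought among 10895 other genes with a mean of at least 50, as Pearson's r on the log2 scale. All points share the same libraries and the 4 groups, so high r values are a description of a shared pattern over the groups. The part of MYC level and of the inhibitor in each r was not tested. For FCRL4 they were HLA-DRB1 (r = 0.997), CETP (0.996) and LAT2 (0.996), and for CLEC17A they were PIK3CG (0.995), TLR1 (0.992) and MPEG1 (0.992). For FCRL3 they were CD274 (0.998), IL1R2 (0.998) and TSPAN11 (0.998), and for FCRL5 they included PARP9 (0.995) and DOCK8 (0.992). FCRLA was closest to FAM136A (0.997), STRBP (0.996) and PEG10 (0.996), and FCRLB to NOC4L (0.960), TCEA3 (0.957) and MMS19 (0.957). FCRL1 and FCRL2 had no match above 0.89: ERBB2 (0.886), UVRAG (0.848) and NUP160 (0.845) for FCRL1, and SLC25A42 (0.884), PBX3 (0.875) and TNFAIP8 (0.873) for FCRL2.

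Genes that work with FCRL receptors were examined as lists. FCRL6, the family member known from cytotoxic lymphocytes, had 0 reads in all 16 libraries, which allows up to 3 reads in each. Of 18 kinases, phosphatases and adaptors that act on tyrosine motif receptors, 15 fell with the inhibitor at medium MYC and 0 rose (median log2 change -0.32), and 16 fell and 0 rose at high MYC (median -0.37). The shares over all tested genes were 14.6% and 16.3% lower. PTPN6, which encodes the ITIM-bound phosphatase SHP-1, averaged 3093 ± 133 in medium MYC controls and 1844 ± 48.6 with the inhibitor (SD, n = 4; log2 change -0.75, SE 0.04, adjusted p in limma 2.53e-11). The kinase gene SYK had a log2 change of -0.31 and the phospholipase gene PLCG2 of -0.35 (adjusted p in limma 6.11e-08 and 5.93e-09).

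Among 13 tested genes of other inhibitory B cell receptors, 5 fell with the inhibitor at medium MYC and 0 rose, and 11 were higher and 2 lower at medium than at high MYC in controls. Over all tested genes 14.6% fell with the inhibitor, and 38.9% were higher and 37.3% lower between MYC levels. CD22 had a log2 change of -0.33, CD72 of -0.35 and SIGLEC10 of -0.37 with the inhibitor (adjusted p in limma 3.10e-08, 5.87e-04 and 5.82e-05). Of 7 tested Fc receptor genes and relatives, 5 fell with the inhibitor at medium MYC (14.6% of all genes fell) and FCMR, the IgM receptor gene, rose with a log2 change of 0.34 (adjusted p in limma 8.41e-04). FCER2, the low-affinity IgE receptor gene, had -0.26 (adjusted p in limma 1.84e-04).

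Of 9 genes in the list of immunoglobulin ligands, 5 were tested, and IGHG1 to IGHG4 did not pass the filter. With the inhibitor at high MYC 1 of the 5 rose and 1 fell, where 10.5% and 16.3% of all tested genes did. With the inhibitor at medium MYC 3 of the 5 rose and 0 fell, where 11.7% of all tested genes rose. The sum of the plasma cell markers, whose list also holds JCHAIN, was higher in the same comparison, but not every marker was. MZB1 averaged 289.6 in controls and 490.4 with the inhibitor, PRDM1 194 and 258, and TNFRSF17 84.5 and 93.2. SDC1 averaged 24.9 and 23.8. Their part in the result was not tested. IGHA1, which encodes the heavy chain of the FCRL4 ligand, averaged 381 ± 33.0 in controls and 518 ± 39.0 with the inhibitor (SD, n = 4), up by 0.44 on the log2 scale (adjusted p in limma 2.88e-05). IGHM, the IgM heavy chain gene, had 0.41 (2.07e-08) and JCHAIN, which joins IgA chains, had 0.69 (1.24e-08). Among controls all 5 were lower at medium MYC, as were 37.3% of all tested genes, JCHAIN by a log2 change of -3.52 (adjusted p in limma 4.72e-22).

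Of 9 tested C-type lectin genes besides CLEC17A, 2 rose and 0 fell with the inhibitor at medium MYC, where 11.7% and 14.6% of all genes did: CLEC2D (log2 change 0.51, adjusted p in limma 5.55e-07) and LY75 (0.42, 0.00225). Of 18 tested genes linked to FCRL4+ and atypical memory B cells, 14 were higher and 3 lower at medium MYC in controls, with a median log2 change of 2.46, against 38.9% higher, 37.3% lower and a median of 0.02 over all tested genes. With the inhibitor at medium MYC 2 of these rose and 4 fell, not far from the 11.7% and 14.6% over all genes. CCR1, a chemokine receptor gene, had a log2 change of -1.60, FAS of 0.51 and ZEB2 of 0.22 (adjusted p in limma 6.03e-06, 0.00208 and 3.51e-05). Of the 10 B cell receptor and coreceptor genes, 1 rose and 3 fell in the same comparison, CD38 with 0.20 and MS4A1 with -0.17 among these, which is near the share over all genes and is not a result about this list.

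**Figure D5:**
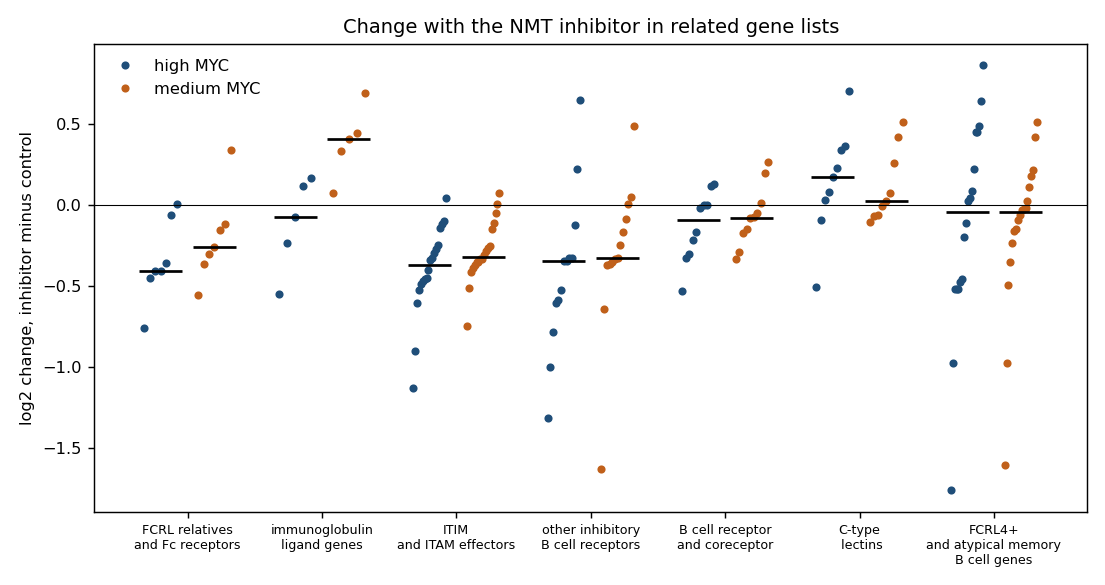
Log2 change with the inhibitor (vertical axis) of each tested gene in 7 related lists, at high MYC (blue) and medium MYC (orange); black lines are list medians. The kinases, phosphatases and adaptors have medians of -0.37 and -0.32, and the 5 immunoglobulin ligand genes -0.07 and 0.41.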

How the data were processed

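The authors deposited a single table of normalized counts, a non-negative expression signal, for 58051 Ensembl identifiers in 16 libraries. STAR 2.5.2a, RSEM 1.2.31, DESeq2 1.16.1 and build GRCh38 are listed per the submitters' processing notes, with no role given; the annotation and use of strand are not given in the sources used here. In each library 100% of deposited values above 0 were whole multiples of one step (tolerance 0.01 read), so whole reads were recovered. Intervals and floors cover counting error only. Symbols matched 56948 identifiers; positions are those of GENCODE release 29 (GRCh38), matched by identifier.

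Genes were tested with limma 3.58.1 (R 4.3.3) after a log2 transform of each deposited value plus 1, with a mean trend, over 13765 genes with a mean of at least 10, all 16 libraries and 4 group means in 1 fit. Benjamini-Hochberg adjustment ran over all tested genes, two-sided, at 0.05. Fold changes are on this log2 scale and understate those of low genes. The fit was tested on simulated counts. Alternatives used other scalings, pseudocounts and filters, edgeR 4.0.16 and DESeq2 1.42.0 on recovered reads, a replicate block and fits without each library; a GC correction was added after the data were seen.

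Members and lists were chosen with earlier results of these data known. Besides the members, up to 3 genes per list or neighbourhood were named, those with the smallest p in the medium MYC inhibitor comparison among called genes, and the 3 most similar genes per member. ETV3, CD1D, CD1C, FCGR2B and NDUFB7 were named after their values were seen. Replicate numbers were not taken as pairs: residuals of same-numbered libraries correlated at means from -0.0715 to 0.0243 between groups. Some genes that this rule names are not reported here.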

Additional observations from a re-analysis of the deposited data

Results flagged for a closer look

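Among 32 sets of 4 libraries (8 genes in 4 groups), 2 held a library far from the other 3, about what chance gives at 1 in 20. FCRL1 had 112.7 in medium MYC control replicate 1, where the others ran from 102 to 103. FCRL4 had 871 in medium MYC inhibitor replicate 1, where the others ran from 773 to 789.6.

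The inhibitor change at high minus that at medium MYC was below 0 for all 8 members. This comparison was used to choose the group, so the values are a description and no p-value is given for them. The 5 listed were picked by the adjusted p-value threshold in limma on this same comparison. That cut is therefore not an independent test of these members. The values were -1.59 for CLEC17A, -1.42 for FCRL4, -0.87 for FCRL2, -0.58 for FCRL5 and -0.21 for FCRLA. These 5 were also the largest relative to their standard error. Of these 5, FCRL2 had log2 changes of opposite sign, -0.72 at high MYC and 0.15 at medium MYC.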

How the results depend on the processing

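Over 24 gene and comparison pairs, 17 kept their direction and their side of the threshold in every alternative that gave a value. Each pair had at most 29 alternatives, and a filter at a mean of 100 gave none for FCRLB. The 24 include FCRL4 and CLEC17A, whose values helped to choose the group, so their stability is not evidence of a change. With the inhibitor at medium MYC, 3 members were called in the fit of all libraries, 1 without a filter and 1 without the mean trend, and from 1 to 4 when each library was left out. FCRL5 was the member called in all of these. FCRL1 at medium MYC, at -0.02, changed sign with equal library totals (0.0088) and in edgeR (0.0064), and ran from -0.0928 to 0.0323 without each library. Without high MYC inhibitor replicate 1, FCRL1 between MYC levels with the inhibitor was 0.0202; over all libraries left out it ran from -0.164 to 0.0202. With the replicate number as a block, 2 members were called with the inhibitor at medium MYC and 8 between MYC levels in controls. Over all genes the counts were 3425 and 10419, and 10601 between MYC levels with the inhibitor. FCRL3 was the member that lost its call under the block. On recovered reads edgeR called 3858 genes with the inhibitor at medium MYC, 10556 between MYC levels in controls and 10632 with the inhibitor, against 3618, 10485 and 10664 in limma. The cause of these changes was not tested. FCRL4 and CLEC17A at high MYC with the inhibitor rest on 12 to 30 reads a library, which limits the precision of their changes.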
